A study of Mus musculus with 2 samples.

Results

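Fabp5, Crabp1, Crabp2, Dhrs3, Dhrs9, Aldh1a3 and Cyp26b1 are 7 of the 27998 genes counted in single-cell RNA sequencing libraries of newborn mouse epidermis, and they were chosen by symbol because each carries or converts retinoids or fatty acids. The libraries came from the epidermis of 2 male C57BL/6J mice at postnatal day 0 in which Chrm3 is deleted in every cell (it encodes an acetylcholine receptor of the muscarinic type). Each mouse gave 1 library, named here KO mouse 1 and KO mouse 2. Wild-type libraries were not analysed here, so each value is a level in the knockout (KO) epidermis and the comparisons run between cell classes, not between genotypes. Skin had been kept overnight in a separation buffer, the epidermis was lifted off the dermis, and dead cells were removed.

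Retinol from the blood is oxidised in cells to retinal and then to retinoic acid, which acts through nuclear receptors. Carrier proteins bring these lipids to enzymes or to the nucleus. CRABP1 and CRABP2 bind retinoic acid, and CRABP2 hands it to retinoic acid receptors. FABP5 binds fatty acids and is the abundant fatty acid-binding protein of stratified epidermis. DHRS3 reduces retinal back to retinol, DHRS9 oxidises retinol, ALDH1A3 makes retinoic acid from retinal, and CYP26B1 breaks retinoic acid down. In the interfollicular epidermis (IFE), keratinocytes leave the basal layer, pass a transitional stage and differentiate towards the cornified surface, while the sebaceous gland makes lipids and opens into the upper hair follicle.

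The files held 10816 and 15867 barcodes in the KO mice, with 109756784 and 166441732 unique molecular identifiers (UMIs, each marking 1 captured transcript). After the filter on cells, 7607 and 11881 cells were left, with medians of 10480 and 10577 UMIs. Of the kept barcode sequences, 34 occurred in both libraries. Chrm3 had 13 and 19 UMIs in kept cells, and the counts do not say from which part of the gene they came. The cells fell into 24 clusters, formed without the 7 genes and without 59 further retinoid and fatty acid genes. Of these clusters, 5 had no gene of a marker list among their 10 leading genes and are called by their leading genes. They held 2505 and 3974 cells, which entered no test. Basal IFE markers summed to 23914 and 23891 CPM in the cluster led by Pou3f1, Ccl27a and Slco2a1. They summed to 17712 and 17360 CPM in that led by Pltp, Kif26a and Fbln2, against 34602 and 32981 CPM in resting basal IFE. A further cluster, led by the dividing-cell genes Hist1h1b, Cenpf and Hist1h2ae, had no marker of a lineage among its leading genes. The same held for the clusters called dividing basal IFE. It was kept apart from them because, against all other cells, its hair follicle progenitor markers were more enriched than its basal IFE markers. It is called here the dividing cells of unnamed lineage. Its basal IFE markers summed to 6039 and 6500 CPM, against 18668 and 19616 CPM in dividing basal IFE. Its hair follicle progenitor markers summed to 2061 and 1882 CPM, against 1356 and 1187 CPM there. All 8 sebaceous markers were found in the sebaceous-like cells of both mice, at a summed level of 14277 and 10088 CPM (the UMIs of a gene scaled to the same total in every class), against 671 and 770 CPM in dermal mesenchyme-like cells, the next highest, 285 and 316 CPM in upper follicle-like cells and at most 195 CPM in any IFE class. The cells of a class were summed in each mouse, and a mean is given with the SD over 2 mice.

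All 7 genes are protein-coding. In GENCODE M21 (GRCm38, mm10), Fabp5 lies at chr3:10012548-10016607 and Crabp2 at chr3:87948666-87953376, both on the plus strand. Crabp1 lies at chr9:54764748-54773110 (plus), Dhrs3 at chr4:144892827-144928209 (plus) and Dhrs9 at chr2:69380445-69404533 (plus). Aldh1a3 lies at chr7:66390890-66427517 and Cyp26b1 at chr6:84571414-84593908, both on the minus strand. RefSeq promoter entries (GRCm38.p6) were at hand for 4 of the 7 genes. These are Crabp1, Cyp26b1, Dhrs3 and Dhrs9. The sequences of Dhrs3 and Cyp26b1 are shown because Crabp1 and Dhrs9 had too few UMIs in keratinocytes to be fitted, and each ends at the base before the GENCODE start. Capitals mark TATAAA on the gene's own strand, which 7.59% of 32851 promoter windows of 250 bases hold. The window of Cyp26b1 has 152 bases and that of Dhrs9 233, so this share is for longer windows.
Dhrs3 promoter, chr4:144892577-144892826, plus strand: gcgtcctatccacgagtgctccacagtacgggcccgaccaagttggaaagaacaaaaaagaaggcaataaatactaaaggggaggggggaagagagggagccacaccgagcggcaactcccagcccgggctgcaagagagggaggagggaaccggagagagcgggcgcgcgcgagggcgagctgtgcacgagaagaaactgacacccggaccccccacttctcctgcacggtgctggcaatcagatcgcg
Cyp26b1 promoter, chr6:84593909-84594060, minus strand: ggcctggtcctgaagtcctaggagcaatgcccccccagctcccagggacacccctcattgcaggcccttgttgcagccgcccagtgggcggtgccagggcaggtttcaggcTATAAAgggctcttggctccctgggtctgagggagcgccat
The TATAAA of Cyp26b1 begins 41 bases before the GENCODE start, and the Dhrs3 window holds none. On both strands of both windows, 0 matches were found of AGGTCA, the core of many nuclear receptor sites. The same held for its variant AGTTCA, and for its variant GGGTCA. Of the windows not shown, that of Crabp1 held 0 matches of the 3 motifs and that of Dhrs9 held 1 AGGTCA and 1 TATAAA. In windows of 250 bases, the counts of the 3 motifs were the same for these 4 genes. Of all promoter windows of that length, 32.9% hold at least 1 of the 3 motifs. These counts of letters say nothing about binding.

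Fabp5 was by far the most detected of the 7 genes, with 109460 and 157585 UMIs in the kept cells of the KO mice. Its level was highest in sebaceous-like cells, at 16355 CPM in KO mouse 1 and 13225 CPM in KO mouse 2. Differentiated IFE followed with 7223 and 7468 CPM, and transitional IFE with 1997 and 2096 CPM. These 3 classes stood in the same order in both mice and none overlapped the next. Sebaceous-like and differentiated cells are 644 of the 19488 kept cells, yet they held 65.5% of the Fabp5 UMIs in KO mouse 1 and 53.3% in KO mouse 2. Below them, inner root sheath or shaft-like cells (972 and 1311 CPM), the cluster led by Tagln, Foxe1 and Gm12446 (725 and 1380.3 CPM), terminally differentiated IFE (1288 and 759.9 CPM) and Merkel cell-like cells (896 and 1068 CPM) overlapped one another. Upper follicle-like cells had 572 and 822 CPM and melanocyte-like cells 510.4 and 514 CPM. Resting basal IFE had the lowest mean of all 20 classes and clusters, 135 ± 69.5 CPM (SD, n = 2).

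For comparison outside the keratinocytes, T cell-like cells held Fabp5 at 150.3 and 157 CPM, and a Fabp5 UMI was seen in 51.9% and 81.6% of them. Resting basal IFE held 85.7 and 184 CPM, with a UMI in 51.9% and 77.2% of cells at a median depth of 9341 and 9309 UMIs, against 9303 and 8486 in T cell-like cells. The resting basal level was thus below that of T cell-like cells in KO mouse 1 and above it in KO mouse 2, and how much of either is free RNA was not tested. Langerhans cell-like cells had 322 and 208 CPM, a range that also takes in dividing basal IFE (256 and 291 CPM). After each cell was thinned to 3000 UMIs, a Fabp5 UMI was left in 23.3% and 38.3% of resting basal cells, 82.4% and 84.3% of transitional cells and 100% of differentiated cells of both mice. Thinning left out 5 and 56 resting basal cells, 1 and 3 transitional cells and 1 and 4 differentiated cells with fewer UMIs.

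**Figure D1:**
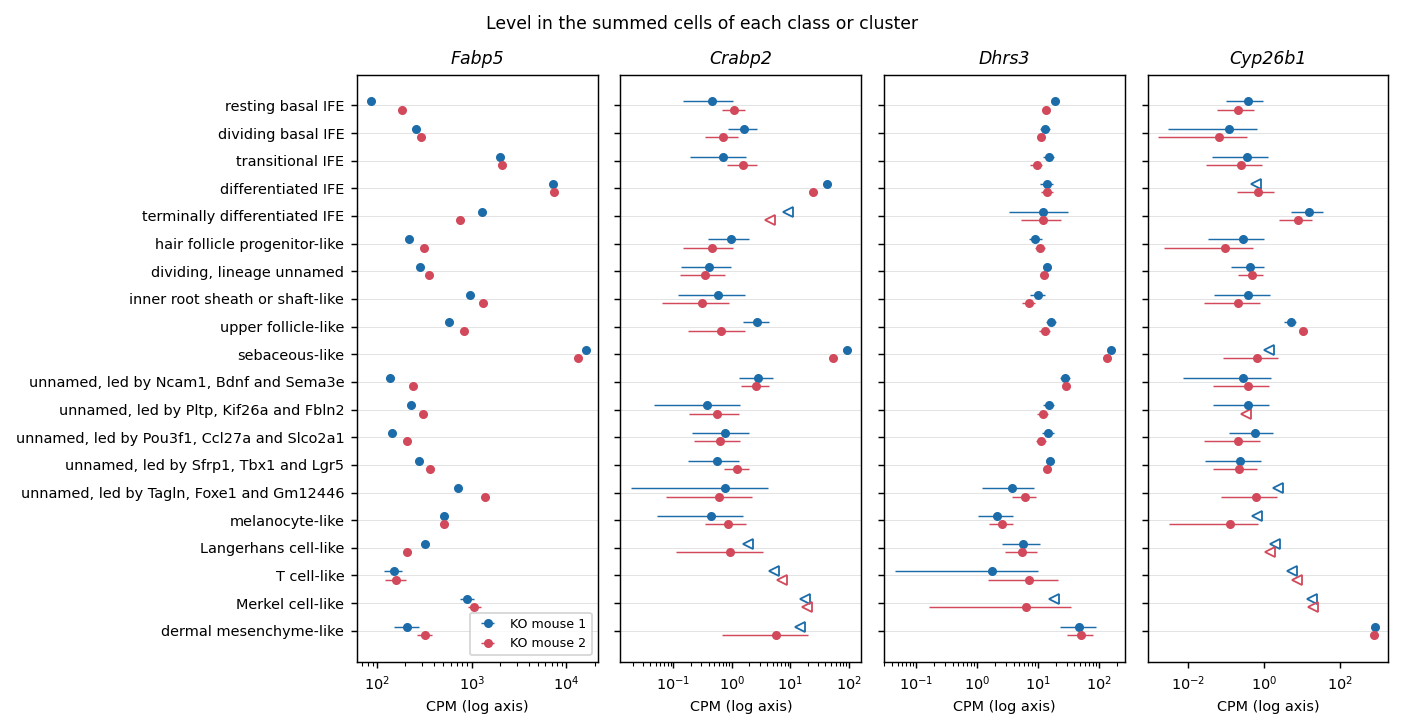
Level of Fabp5, Crabp2, Dhrs3 and Cyp26b1 (CPM, log axes) in the summed cells of each class or cluster, 1 point per KO mouse with its exact 95% Poisson interval, which covers counting error only. Open triangles stand at the limit that a count of 0 allows. Fabp5 and Crabp2 peaked in sebaceous-like and differentiated IFE cells, Dhrs3 in sebaceous-like cells and Cyp26b1 in dermal mesenchyme-like cells.

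The first set of comparisons asked how the genes move along IFE differentiation. Of the 7 genes, Fabp5, Crabp2, Dhrs3 and Cyp26b1 had enough UMIs to be tested among 12702 genes. Cyp26b1 passed that filter only through upper follicle-like and terminally differentiated cells, where it is high, so its levels are given as a description with no test. Crabp2 also passed it without the sums of differentiated and sebaceous-like cells, where it is highest. Each fold change below is from the quasi-likelihood fit of edgeR on sums scaled by TMM, so it can differ a little from a ratio of CPM. Its p-values are Benjamini-Hochberg adjusted over these genes. Each SE was derived from the test, as the size of the log2 fold change over the square root of its F statistic.

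Between resting basal and transitional IFE, Fabp5 rose by 4.003 on the log2 scale (SE 0.32, edgeR adjusted p = 3.57e-08), and its level was 23.3-fold and 11.4-fold higher in the KO mice. Of all genes tested, 16.8% were called higher and 15.3% lower in this comparison. Without KO mouse 2 the TMM-scaled log2 difference of Fabp5, which comes from no fit, was 4.61. The fitted Fabp5 value also moved with how the stage was drawn, and was 4.59 when IFE cells were clustered alone. It was 5.24 in cells with under 5% mitochondrial UMIs. Clusters were named afresh there and none was differentiated IFE, so that transitional class may hold other stages, which was not tested. Crabp2 had 4 and 13 UMIs in transitional cells, with a log2 difference of 0.58 (SE 0.78). Dhrs3 had 15.1 and 9.59 CPM there against 19.3 and 13.8 CPM in resting basal cells, with a log2 difference of -0.34 (SE 0.20), which missed the threshold.

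Between resting basal and differentiated IFE, Fabp5 and Crabp2 both rose, in a comparison in which 30.2% of genes were called higher and 26.7% lower. Fabp5 rose by 5.99 (SE 0.35, edgeR adjusted p = 8.84e-11). Crabp2 went from 5 and 21 UMIs in resting basal cells to 212 and 144 UMIs in differentiated cells, that is from 0.457 and 1.09 CPM to 43.5 and 24.7 CPM. Its log2 fold change was 5.52 (SE 0.44, edgeR adjusted p = 1.16e-08). The size of both rises differed between the mice, at 84.3-fold and 40.6-fold in CPM for Fabp5 and 95.04-fold and 22.5-fold for Crabp2, and in each case the resting basal level was lower in KO mouse 1. Without KO mouse 2 the TMM-scaled log2 differences, which come from no fit, were 6.66 for Fabp5 and 6.62 for Crabp2. Without KO mouse 1 that of Crabp2 was 4.66. When IFE cells were clustered alone, Crabp2 rose by 6.40. Dhrs3 had a log2 difference of 0.02 (SE 0.21), with 13.9 and 14.2 CPM in differentiated cells, inside the range of the resting basal sums. A Crabp2 UMI was seen in 31.5% and 27.1% of differentiated cells, and those cells were deeper (medians of 29596 and 29736 UMIs) than the rest (20974 and 19512). The sebaceous markers summed to 195 and 166 CPM in differentiated IFE, where Cidec was at 0 in both mice.

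Both carriers were lower again in terminally differentiated IFE, the cells led by late cornified envelope genes, whose 19 markers summed to 46246 and 57084 CPM there. Against differentiated IFE, 14.0% of genes were called higher and 16.8% lower. Fabp5 fell by 3.27 on the log2 scale (SE 0.31, edgeR adjusted p = 3.52e-07), to 17.8% and 10.2% of the differentiated level. Crabp2 had 0 UMIs in the 48 and 62 terminally differentiated cells. A count of 0 allows up to 9.20 and 4.60 CPM there, so its level was at least 4.73-fold lower in KO mouse 1 and at least 5.37-fold lower in KO mouse 2. Cyp26b1 had 5 UMIs in each mouse (15.3 and 7.66 CPM), against 0 and 4 in differentiated cells (0 and 0.686 CPM). Those UMIs lay in 5 cells of KO mouse 1 and in 2 cells of KO mouse 2, where 1 cell held 4 of them. In the cells with a Cyp26b1 UMI, the 7 dermal mesenchyme markers summed to 0 and 48.7 CPM, against 11.2 and 1.58 CPM in the others, and the upper follicle markers to 1953 and 2047 CPM, against 692 and 1594 CPM. Dhrs3 had 12.3 CPM in both mice, from 4 and 8 UMIs. Median depth fell with this step, from 23567 and 22451.5 UMIs per differentiated cell to 5209.5 and 8970.0, and markers of some other classes were higher. The 10 G2/M markers summed to 1233 and 1469 CPM against 85.1 and 111 CPM in differentiated IFE, and the 14 basal IFE markers to 10288 and 11379 CPM against 3881 and 4620.3 CPM. The hair follicle progenitor markers summed to 1542 and 1131 CPM against 197 and 231 CPM, and the 7 melanocyte markers to 227 and 296 CPM against 20.3 and 90.2 CPM. The part of depth and of these markers in the lower levels was not tested.

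Dividing basal IFE showed small differences against resting basal IFE, where 16.5% of genes were called higher and 17.7% lower. Fabp5 was higher by 0.81 (SE 0.29, edgeR adjusted p = 0.0351) and Dhrs3 lower by a log2 difference of -0.64 (SE 0.19, edgeR adjusted p = 0.0133). Neither call stood once doublets were removed, when the log2 differences were 0.46 for Fabp5 (edgeR adjusted p = 0.214) and -0.38 for Dhrs3 (edgeR adjusted p = 0.0975). Doublets made up 3.39% and 9.31% of dividing basal cells and 0.181% and 0.254% of resting basal cells.

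**Figure D2:**
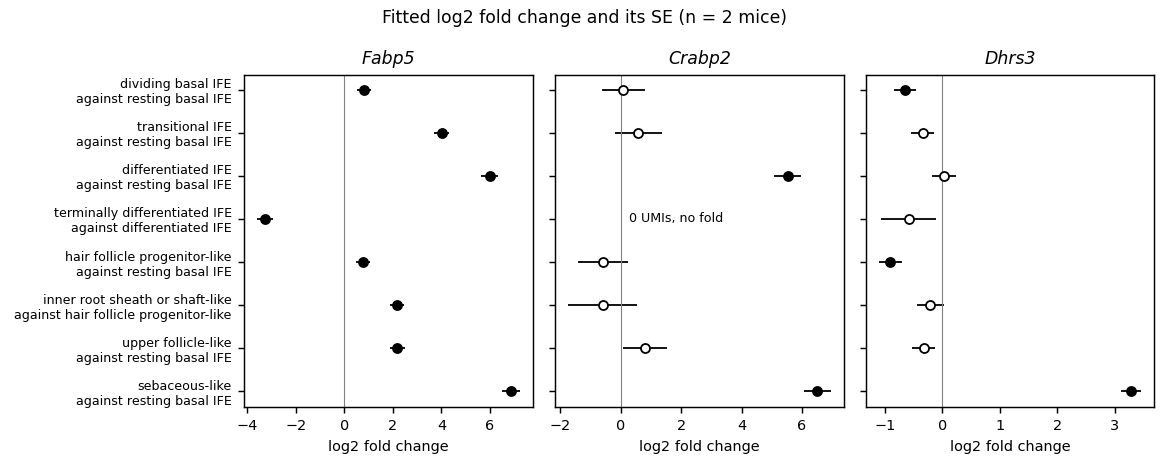
Log2 fold change from the edgeR fit over 20 sums (10 classes, 2 mice), for Fabp5, Crabp2 and Dhrs3 in 8 comparisons. Bars show its SE, derived from the F statistic of the test. Filled points passed an adjusted p of 0.05 and open points did not. No fold is drawn for Crabp2 in terminally differentiated IFE, where no UMI was counted.

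A finer view came from ordering resting basal, transitional and differentiated IFE cells by the ratio of suprabasal keratin UMIs (Krt1 and Krt10) to basal keratin UMIs (Krt5 and Krt14), each with 1 added. In KO mouse 1, Fabp5 was at 105 CPM where the log2 ratio was -6 to -4 (750 cells) and 1876 CPM at -2 to 0 (90 cells). It was at 3498 CPM at 2 to 4 (68 cells) and 8132 CPM at 8 or more (98 cells). In KO mouse 2 the same bins held 259 CPM (764 cells), 1625 CPM (239 cells), 4807 CPM (86 cells) and 10216 CPM (59 cells). Fabp5 thus increased from bin to bin in both mice over the whole range of bins with 20 or more cells. Crabp2 stayed below 8 CPM in both mice up to a log2 ratio of 4. It reached 46.1 and 35.1 CPM in the last bin. Dhrs3 had no such course, with 12.7 to 20.03 CPM in KO mouse 1 and 8.64 to 15.2 CPM in KO mouse 2. Sdr16c6, a retinol dehydrogenase, climbed from 6.97 and 6.77 CPM at -6 to -4 to 281 and 263 CPM in the last bin. Median depth also rose along this order, from 10008 and 11270.5 UMIs to 24166.5 and 25654, and CPM corrects only for the total.

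**Figure D3:**
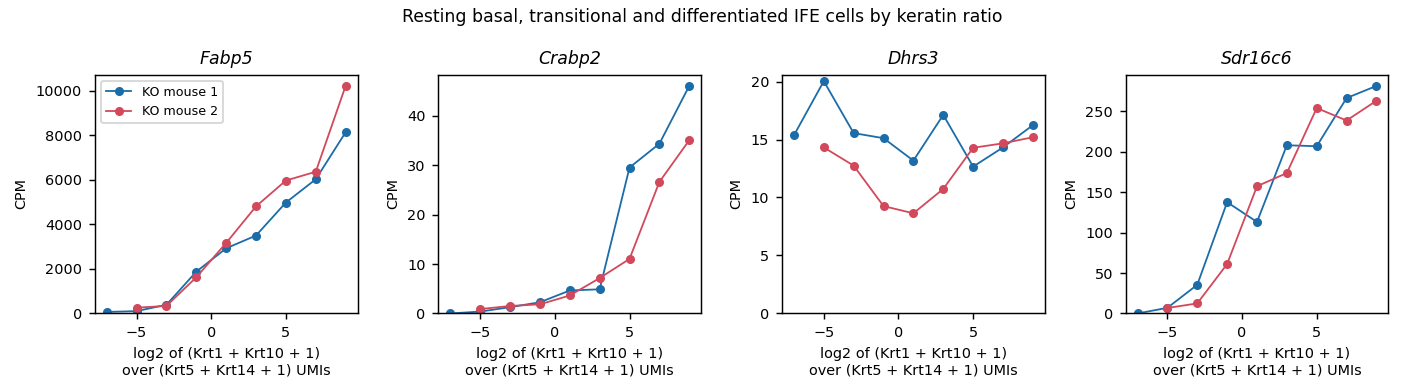
Level (CPM) of Fabp5, Crabp2, Dhrs3 and Sdr16c6 in resting basal, transitional and differentiated IFE cells binned by the log2 ratio of Krt1 and Krt10 UMIs to Krt5 and Krt14 UMIs, 1 line per KO mouse, bins of 20 or more cells. The last point of each line stands for all ratios of 8 or more, and the first point of KO mouse 1 for all ratios under -6. Fabp5 increased at every step, Crabp2 mainly at high ratios, and Dhrs3 showed no steady change.

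In sebaceous-like cells, Fabp5, Crabp2 and Dhrs3 were all high. This class also held upper follicle markers, at a sum of 5013 and 4035 CPM, against 14777 and 10131 CPM in upper follicle-like cells. Against resting basal IFE, 28.8% of genes were called higher and 24.3% lower. Fabp5 rose by 6.88 (SE 0.36, edgeR adjusted p = 1.87e-11). Crabp2 rose by 6.50 (SE 0.44, edgeR adjusted p = 1.22e-09), from 0.457 and 1.09 CPM to 93.8 and 54.3 CPM. Dhrs3 rose by 3.28 (SE 0.18, edgeR adjusted p = 2.88e-11), to 160.2 and 136 CPM. In CPM the rise was 191-fold and 71.9-fold for Fabp5, 205-fold and 49.5-fold for Crabp2 and 8.30-fold and 9.85-fold for Dhrs3, so that only for Dhrs3 was it of like size in both mice. The TMM-scaled log2 differences without KO mouse 2, which come from no fit, were 7.73 for Fabp5 and 7.62 for Crabp2. Without KO mouse 1 they were 6.14 and 5.54. In cells with under 5% mitochondrial UMIs the mean Fabp5 level of sebaceous-like cells was 9315 CPM and its log2 fold change 5.78. That Dhrs3 level was above those of all other classes and clusters, the next being dermal mesenchyme-like cells with 48.3 and 51.0 CPM and the cluster led by Ncam1, Bdnf and Sema3e with 28.3 and 29.1 CPM. A Dhrs3 UMI was seen in 85.6% and 84.5% of sebaceous-like cells, and in 38.1% and 34.9% of them after thinning. In melanocyte-like cells the share was 2.06% and 2.48%, at a median depth of 8786 and 9667 UMIs against 18387 and 16850.5. Cyp26b1 had 0 and 2 UMIs in sebaceous-like cells.

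Sebaceous-like cells were not uniform. They were put in 3 parts of equal size by the share of their UMIs that came from the 8 sebaceous markers, a measure that uses none of the 7 genes. These markers summed to 4088 and 2814 CPM in the first part and 21671 and 17128 CPM in the last. Krt79, an upper follicle marker, was at 4113 and 3739 CPM in the first part and 5193 and 3723 CPM in the last. How far upper follicle cells enter these parts was not tested. Fabp5 went from 2420 through 10342 to 25252 CPM in KO mouse 1 and from 2390.4 through 6316 to 24063 CPM in KO mouse 2. Crabp2 was almost confined to the part with the highest share, which held 208 of 209 Crabp2 UMIs in KO mouse 1 and 163 of 166 in KO mouse 2. Dhrs3 was present throughout, at 117, 139.7 and 189 CPM in KO mouse 1 and 86.4, 129 and 170.2 CPM in KO mouse 2. Cd36, a fatty acid translocase, climbed from 31.2 to 275 CPM and from 19.8 to 235 CPM. Pparg, the nuclear receptor of the adipocyte and sebocyte lipid programmes, was between 117 and 149.8 CPM in KO mouse 1 and between 98.5 and 120.4 CPM in KO mouse 2, with no steady change. Dbi, an acyl-CoA-binding protein, was lowest in the same last part, at 13.0 and 41.3 CPM against 104 and 109.7 CPM in the first. The last part was also the deepest, with medians of 26950 and 23002 UMIs against 12099 and 10870 in the first, and its part in these levels was not tested.

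Cells with a Crabp2 UMI numbered 13 of 97 and 17 of 148 sebaceous-like cells, and all of them also held a Dhrs3 UMI, which was seen in 83 and 125 of the sebaceous-like cells. Those with a Crabp2 UMI were deeper, with medians of 34038 and 28337 UMIs against 16596 and 16233. Fabp5 was at 24359 and 27377 CPM in those cells and at 13450 and 9137 CPM in the others.

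**Figure D4:**
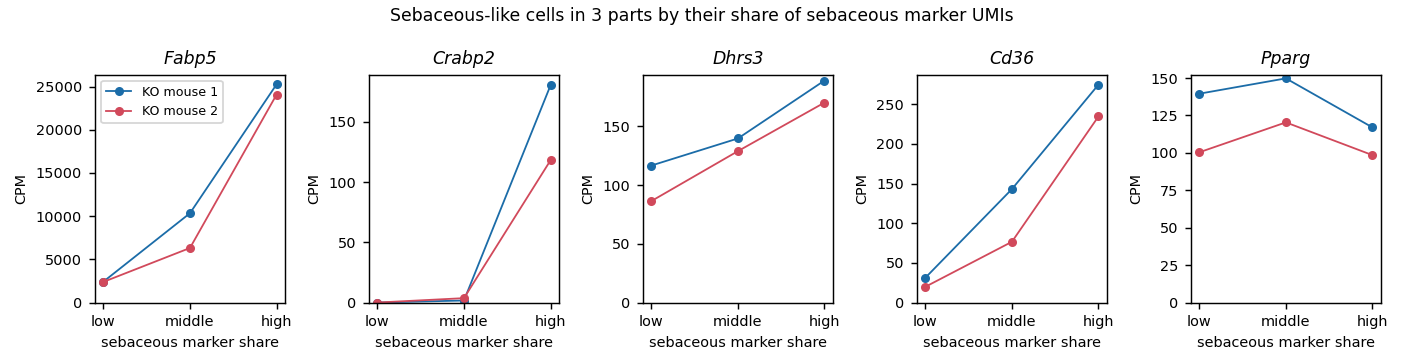
Level (CPM) of Fabp5, Crabp2, Dhrs3, Cd36 and Pparg in sebaceous-like cells divided into 3 parts by their share of sebaceous marker UMIs, 1 line per KO mouse (97 and 148 cells). Fabp5, Crabp2, Dhrs3 and Cd36 were highest in the last part, and Pparg was not.

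In the upper follicle, the funnel above the sebaceous gland, Fabp5 was higher than in resting basal IFE, in a comparison in which 25.7% of genes were called higher and 21.9% lower. Fabp5 rose by 2.18 (SE 0.29, edgeR adjusted p = 6.94e-06). Cyp26b1 had 31 UMIs (4.96 CPM) in KO mouse 1 and 65 UMIs (10.5 CPM) in KO mouse 2, against 4 UMIs of resting basal IFE in each mouse. The ratio of CPM was 13.5-fold in KO mouse 1 and 50.5-fold in KO mouse 2. These UMIs came from few cells, 8 of 298 and 5 of 264, and 1 cell of KO mouse 2 held 23 of them. Those cells were deep, with medians of 36814 and 55843 UMIs against 15523 and 17803 in the other upper follicle-like cells. Their 7 dermal mesenchyme markers summed to 3.44 and 0 CPM and their upper follicle markers to 12406 and 9373 CPM, and Scrublet called 0 of the 13 cells doublets. Aldh1a3 had 8 UMIs here in KO mouse 1, its highest count in a class of that mouse, and 5 in KO mouse 2, as many as in the dividing cells of unnamed lineage, or 1.28 and 0.811 CPM. Crabp2 had 17 and 4 UMIs (log2 difference 0.80, SE 0.74) and Dhrs3 16.5 and 13.0 CPM (log2 difference -0.32, SE 0.20), and neither passed the threshold.

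Hair follicle progenitor-like cells, led by Shh, differed little from resting basal IFE in these genes, in a comparison in which 23.9% of genes were called higher and 24.0% lower. Fabp5 was higher by 0.76 (SE 0.29, edgeR adjusted p = 0.0367), at 219.9 and 313 CPM, but these levels lie close to those of Langerhans cell-like cells. That call was lost when doublets were removed (edgeR adjusted p = 0.0534), though the log2 difference was still 0.69. Dhrs3 was lower by a log2 difference of -0.90 (SE 0.20, edgeR adjusted p = 0.00106), at 9.14 and 10.9 CPM. The dividing cells of unnamed lineage held Fabp5 at 286 and 354 CPM and Dhrs3 at 14.4 and 12.6 CPM.

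Inner root sheath or shaft-like cells, named from genes of the differentiating inner layers of the follicle, again had more Fabp5 than the progenitor-like cells. It rose by 2.18 (SE 0.29, edgeR adjusted p = 1.87e-05), 4.42-fold and 4.18-fold in the KO mice, where 16.9% of genes were called higher and 16.4% lower. Crabp2 had 3 UMIs in each mouse and Dhrs3 9.94 and 7.18 CPM, and neither passed the threshold. The class also held dividing cells, with G2/M markers at 2729 and 2688 CPM against 1618 and 1290 CPM in progenitor-like cells. Its sheath and shaft markers summed to 1576 and 1351 CPM, against 507 and 422 CPM in progenitor-like cells. Its hair follicle progenitor markers summed to 1577 and 1331 CPM. The part of division in the Fabp5 level was not tested.

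Cyp26b1, Crabp1 and Aldh1a3 were highest outside the keratinocytes. In the 39 and 67 dermal mesenchyme-like cells, Cyp26b1 was at 830.4 and 784 CPM, and 89.7% and 92.5% of these cells held a UMI of it. They held 74.1% and 72.7% of all Cyp26b1 UMIs of kept cells. Crabp1 was at 57.9 and 25.5 CPM there, from 12 and 9 UMIs, and at most 0.781 CPM elsewhere. Aldh1a3 was at 14.5 and 8.50 CPM, from 3 UMIs in each mouse. No named keratinocyte class had more than 4 Crabp1 UMIs in a mouse. Dhrs9 had 3 UMIs in the kept cells of each mouse and no more than 1 in any class of a mouse, so its distribution was not detectable at this depth. Doublets made up 10.3% and 16.4% of the dermal mesenchyme-like cells, and their median depth was 4094 and 4330.0 UMIs.

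The rest of the pathway was read from lists of 33 retinoid genes and 26 fatty acid genes, of which 25 and 15 could be tested. In transitional IFE, 10 of the 25 retinoid genes were higher and 1 lower, where 16.8% of all genes were higher and 15.3% lower (median log2 difference 0.31, against 0.01 over all genes). In differentiated IFE, 14 were higher and 2 lower, against 30.2% and 26.7% of all genes (median 1.92, against 0.02). In sebaceous-like cells 17 were higher and 2 lower, against 28.8% and 24.3% (median 1.91, against 0.003). In terminally differentiated against differentiated IFE, 0 were higher and 12 lower, against 14.0% and 16.8% (median -0.98, against -0.05). Among the 15 fatty acid genes, 8 were higher and 2 lower in transitional IFE, 10 and 2 in differentiated IFE, 9 and 3 in sebaceous-like cells and 2 and 7 in terminally differentiated IFE. Their median log2 differences were 0.71, 2.04, 3.02 and -1.22 in that order. The higher genes in transitional, differentiated and dividing basal IFE and in upper follicle-like cells include Pparg. It was near the limit of detection in resting basal and differentiated IFE. Upper follicle-like cells had 9 retinoid genes higher and 2 lower, and 8 fatty acid genes higher and 1 lower, where 25.7% of all genes were higher and 21.9% lower. In dividing basal IFE, 4 retinoid genes were higher and 5 lower, and 4 fatty acid genes were higher and 3 lower, where the shares of all genes were 16.5% and 17.7%, so the retinoid counts were near the background. Hair follicle progenitor-like cells had 2 and 5 retinoid genes and 2 and 6 fatty acid genes in those directions, against 23.9% and 24.0% of all genes, and inner root sheath or shaft-like cells 2 and 3 of each list, against 16.9% and 16.4%. Whether a gene of these lists passed the filter on low sums without its highest class was not checked. Cd36 was hardly seen in keratinocytes outside sebaceous-like cells and passed that filter through them alone. The list counts in all of these comparisons are thus a description.

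Of the genes for retinol uptake and storage, 3 were hardly seen in keratinocytes. Stra6, the receptor that takes up retinol, reached at most 1.53 CPM in any keratinocyte class of a mouse, Rbp4, its plasma carrier, 0.449 CPM, and Lrat, which stores retinol as esters, 2.27 CPM. Rarres1, a gene named for its response to retinoids, was at 1.37 and 3.81 CPM in resting basal IFE, 87.4 and 48.3 CPM in differentiated IFE, 145 and 88.5 CPM in upper follicle-like cells and 333 and 147 CPM in sebaceous-like cells.

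Of 14 genes tested that oxidise retinol or reduce retinal, 6 were higher in transitional IFE, 9 in differentiated IFE and 12 in sebaceous-like cells, and 0 were lower in these 3 comparisons. Of 5 uptake and storage genes tested, 2, 4 and 2 were higher in the same comparisons and 0 lower. Of all genes tested, 16.8%, 30.2% and 28.8% were higher and 15.3%, 26.7% and 24.3% lower in these comparisons. The uptake and storage count in sebaceous-like cells was near that share, and the median log2 difference of this list there was -0.56. Whether these genes passed the filter on low sums without their highest class was not checked, so the counts of both lists are a description. Sdr16c6 went from 2.93 and 6.78 CPM in resting basal IFE to 109.8 and 73.3 CPM in transitional IFE, 293 and 268 CPM in differentiated IFE and 1674 and 1207 CPM in sebaceous-like cells. Sdr16c5, its neighbour in function, rose by 4.13 in differentiated IFE (SE 0.22, edgeR adjusted p = 2.84e-11) and by 4.72 in sebaceous-like cells (SE 0.22, edgeR adjusted p = 4.05e-12). Rdh10, the main retinol dehydrogenase of the embryo, rose by 1.13 (SE 0.24, edgeR adjusted p = 0.000632) and 1.92 (SE 0.25, edgeR adjusted p = 3.40e-06) in the same comparisons. The step that makes retinoic acid was near the limit of detection. Aldh1a1 reached 4.94 and 4.25 CPM in sebaceous-like cells, from 11 and 13 UMIs, and Aldh1a2 at most 0.160 CPM in any keratinocyte class. Cyp26a1, which like Cyp26b1 belongs to the breakdown of retinoic acid, had 0 UMIs in these classes.

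The receptors changed less and partly the other way. Rarg, the main retinoic acid receptor of epidermis, went from 84.3 and 79.4 CPM in resting basal IFE to 56.4 and 49.0 CPM in differentiated IFE and 45.3 and 40.5 CPM in sebaceous-like cells, and was called lower in both (log2 differences of -0.40 and -0.83). Rara was at 46.9 and 53.8 CPM in resting basal IFE and at 116.8 and 110.4 CPM in hair follicle progenitor-like cells, a rise of 0.94 (SE 0.09, edgeR adjusted p = 1.42e-07). It was lowest in sebaceous-like cells, at 20.6 and 24.8 CPM. Rxra, a shared partner of nuclear receptors, lay between 49.0 and 98.3 CPM in all keratinocyte classes of both mice. Against resting basal IFE it was called higher in transitional (0.44), differentiated (0.39) and sebaceous-like cells and lower in dividing basal IFE (-0.41). It was also called lower in terminally differentiated against differentiated IFE (-0.78) and in inner root sheath or shaft-like against progenitor-like cells (-0.69).

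On the fatty acid side, Fabp4, the adipocyte carrier, reached 0.898 and 3.27 CPM in sebaceous-like cells. Cd36 was at 187 and 132 CPM in sebaceous-like cells and at most 0.320 CPM in any other keratinocyte class. Slc27a4, a fatty acid transporter and activator, rose by 2.46 in differentiated IFE (SE 0.22, edgeR adjusted p = 2.33e-08) and by 6.36 in sebaceous-like cells (SE 0.20, edgeR adjusted p = 1.69e-14), where it was at 431 and 307 CPM. Dbi parted from Fabp5, as it rose in differentiated IFE (987.9 and 1032 CPM; log2 fold change 2.04, SE 0.16, edgeR adjusted p = 4.20e-09) and was lower in sebaceous-like cells (41.3 and 73.2 CPM, log2 difference -2.20, SE 0.18, edgeR adjusted p = 6.58e-09) than in resting basal IFE (259 and 315 CPM). The nuclear receptors for fatty acids divided between the same classes. Ppard rose by 1.65 in differentiated IFE (SE 0.15, edgeR adjusted p = 2.98e-08) and was lower in sebaceous-like cells (6.28 and 6.86 CPM, against 10.98 and 12.3 CPM). Pparg was at 131 and 105 CPM in sebaceous-like cells, against 0.0915 and 0 CPM in resting basal IFE and 0.205 and 0.686 CPM in differentiated IFE.

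**Figure D5:**
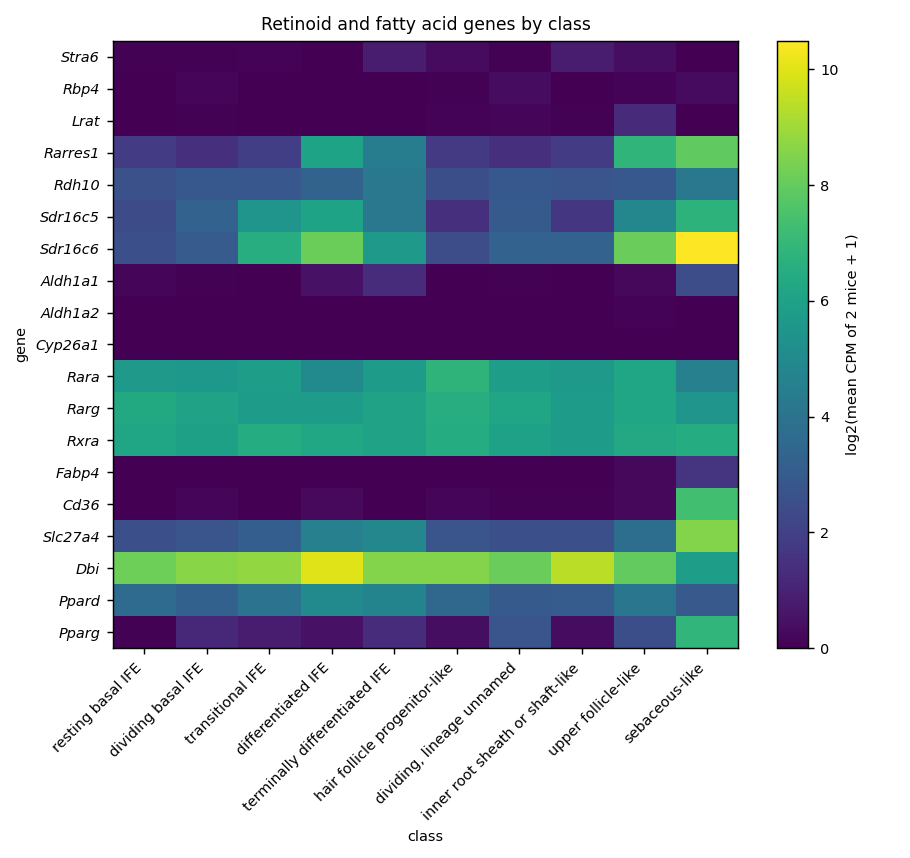
Level of the named retinoid and fatty acid genes, as log2 of the mean CPM of 2 KO mice plus 1, in the 10 keratinocyte classes. Sdr16c6, Slc27a4, Cd36, Pparg and Rarres1 were brightest in sebaceous-like cells, and Dbi in differentiated IFE.

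The genes whose pattern over the 20 class sums was most like that of each tested gene were picked by Pearson's r of log2(CPM + 10) among 7894 genes, as a description over sums that share libraries. For Fabp5 they were Hsd17b7 (r = 0.935) and Sqle (r = 0.935), enzymes of cholesterol synthesis, and Ormdl2 (r = 0.931), a regulator of sphingolipid synthesis. For Crabp2 they were Adtrp (r = 0.973), C130079G13Rik (r = 0.968) and Alas1 (r = 0.952), which starts haem synthesis. For Dhrs3 they were Lpcat3 (r = 0.985), a phospholipid acyltransferase, Acoxl (r = 0.981) and Tmem45b (r = 0.981). For Cyp26b1 they were Tsc22d2 (r = 0.905), Cpeb4 (r = 0.900) and Chmp4c (r = 0.891), a likeness that rests on few UMIs.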

How the data were processed

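Per the labels, the authors aligned the reads to mm10 using Cell Ranger 3.0.2. Their deposited values are raw counts of UMIs for each gene in each barcode called as a cell. The labels and the paper name different chemistry versions of the 10x libraries. Kept cells had 900 to 7700 detected genes and less than 10% of UMIs from mitochondrial genes. They were log-normalized and integrated in Seurat 5.3.0 (2000 variable genes without the 66 genes reported here, 30 dimensions, resolution 0.8). A cluster took a name from a marker list with at least 1 gene among its 10 leading genes. Dividing clusters were called basal IFE where basal IFE markers were more enriched than hair follicle progenitor markers, and of unnamed lineage otherwise. Scrublet (scanpy 1.11.5) scored doublets, which stayed in. UMIs were summed per class and mouse, since cells are not replicates, and the 20 sums entered 1 edgeR 4.0.16 fit (TMM, filterByExpr, 12702 genes, 10 residual degrees of freedom), called at an adjusted p of 0.05 and tested on simulated data. There, the changed genes were raised or lowered by 2 on the log2 scale in the first class of the comparison. No other class effect was put in, all genes had the same spread, and smaller changes were not simulated. Of the changed genes, 57.5% were recovered for terminally differentiated against differentiated IFE, and 88.0% to 94.0% in the other comparisons. A gene not called in the former thus carries less weight. Sums of 1 mouse come from the same animal, so mouse pairs them: the deviations correlated at r = -0.0096 to 0.312 (median 0.103, 45 pairs). Intervals and the limit for a count of 0 (3 counts) cover counting error only. All p-values rest on 2 mice, classes of 1 mouse share a library, and the classes came from clusters of the same cells.

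The 7 genes, the lists and the tests were chosen with earlier results of these data known. Of the pathway genes, 20 were fixed by rule to be named, of which 1 is not reported here by name but stays in the counts over the lists. Alternatives were no filter, DESeq2 1.42.0, its size factors, mouse as a block, doublets removed, under 5% mitochondrial UMIs, resolution 1.2, each mouse left out, and stages from clusters of IFE cells alone, the last added after seeing the clusters. The doublet rate given to Scrublet was set after its default called 2 cells in KO mouse 1.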

Additional observations from a re-analysis of the deposited data

Results flagged for a closer look

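Barcodes removed by the filter on cells (3209 and 3986) entered no comparison, and 6 of the 7 genes had more UMIs in them than a count of 0 allows. Fabp5 was at 884 and 1134 CPM in the removed barcodes of KO mouse 1 and KO mouse 2, against 1152 and 1059 CPM over all kept cells. Dhrs3 was at 16.3 and 15.1 CPM, Crabp2 at 3.88 and 5.85 CPM, Cyp26b1 at 4.56 and 4.60 CPM, Crabp1 at 1.16 and 1.02 CPM and Aldh1a3 at 0.680 and 0.284 CPM. Over kept cells Cyp26b1 was at 2.44 and 2.56 CPM and Crabp1 at 0.242 and 0.128 CPM, so both were higher in the removed barcodes of both mice.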

How the results depend on the processing

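Of 108 tests of Fabp5, Crabp2 or Dhrs3 where called here, under an alternative with a test, 98 kept direction and call and 10 kept direction but lost the call. The losses were Fabp5 and Dhrs3 in dividing basal IFE, each with resolution 1.2, doublets removed, under 5% mitochondrial UMIs and stages from IFE cells alone, and Fabp5 in hair follicle progenitor-like cells with doublets removed and stages from IFE cells alone. Without the filter on low sums, the prior degrees of freedom of the edgeR fit were infinite (median 7.70 with the filter), so all genes shared 1 spread and the calls kept there carry little weight. Counts of genes called moved by over 1.5 times in 7 of 62 cases. In dividing basal IFE, 4341 genes became 1929 at resolution 1.2, 962 under 5% mitochondrial UMIs and 2783 with stages from IFE cells alone. Under 5% mitochondrial UMIs, 6078 became 3451 in hair follicle progenitor-like cells, 4228 became 2191 in inner root sheath or shaft-like cells, 6050 became 3881 in upper follicle-like cells and 6744 became 4293 in sebaceous-like cells, and no class met the name of differentiated IFE, so its comparisons have no value there. The cause was not tested. With mouse as a block, 5522 genes were called in dividing basal IFE, and pairing changed no call of Fabp5, Crabp2 or Dhrs3.

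Of the differences of Fabp5, Crabp2 and Dhrs3, only those that were not called changed sign. Crabp2 in dividing basal IFE went from 0.09 to -0.42 at resolution 1.2, -0.93 with doublets removed, -2.12 under 5% mitochondrial UMIs and -0.40 with stages from IFE cells alone. Dhrs3 in differentiated IFE went from 0.02 to -0.066 without the filter, -0.018 with DESeq2 and -0.0076 with its size factors. Fitted values of Cyp26b1, which is described with no test, also changed sign. They went to -0.47 in transitional IFE and -3.35 in inner root sheath or shaft-like cells under 5% mitochondrial UMIs. They went to -3.28 in the latter class at resolution 1.2, and to -0.48 in sebaceous-like cells with doublets removed. Crabp2 was newly called in transitional IFE under 5% mitochondrial UMIs (5.44) and with stages from IFE cells alone (1.94). Under 5% mitochondrial UMIs, clusters were named afresh and none was differentiated IFE, so that transitional class may hold other stages, which was not tested. Crabp2 was also newly called in upper follicle-like cells with doublets removed (1.48). With doublets kept, its CPM there was 5.94-fold that of resting basal IFE in KO mouse 1 but 0.592-fold in KO mouse 2. With each mouse left out there is no test.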
